A study of Homo sapiens with 6 samples.

Results

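Amino acid transporters of the SLC families SLC1, SLC3, SLC6, SLC7, SLC36, SLC38 and SLC43 were compared between methotrexate-resistant and sensitive HT29 cells. The genes were taken by their symbols, whatever their change, with SLC7A2 left out. Of the 19775 genes that had a probe set naming only them, 55 belonged to these families, and 30 of the 55 passed the filter on dim signals. HT29 is a human colon adenocarcinoma line, and methotrexate (MTX) is an antifolate drug that blocks dihydrofolate reductase. The resistant group was 3 samples of HT29 cells selected stepwise to grow in 10 μM MTX and kept in medium without glycine, hypoxanthine and thymidine, with dialyzed serum. The sensitive group was 3 samples of the parental HT29 cells, grown with whole serum in Ham's F12. No source used here says whether the resistant cells are 1 clone or a mixed population. The supply of glycine, itself a transported amino acid, therefore differed together with resistance, and the effects of medium and resistance cannot be told apart. RNA was hybridized to 6 Affymetrix HG U133 PLUS 2.0 arrays. No source used here says that the samples came from separate cultures, so that p-values measure only how far these samples differ, and that spread may be technical.

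Cells take up amino acids through carriers that divide the work by substrate and by driving force. The SLC1, SLC6 and SLC38 carriers use the sodium gradient to accumulate amino acids, and SLC36 carriers use protons. Most SLC7 proteins are light chains that exchange one amino acid for another and reach the plasma membrane bound to a heavy chain, SLC3A1 or SLC3A2. Proliferating tumour cells are known to rely on SLC1A5 and the SLC7A5-SLC3A2 exchanger for glutamine and leucine, which feed mTORC1, and on SLC7A11 for the cystine used in glutathione.

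Signals had been computed with MAS5 on a linear scale. They are given here as scaled signals, in units of the median of the array they came from, and the brightest probe set stood for its gene. SE below is the standard error of a log2 fold change. The array medians were between 13.3 and 16.9 in resistant samples and between 14.2 and 15.4 in sensitive samples. Correlations of log2 signals were between 0.9716 and 0.9786 within groups and between 0.9135 and 0.9219 across them. RNA integrity, read from the 3'/5' signal ratio of ACTB controls, was at 1.17 to 1.3 in resistant and 1.12 to 1.17 in sensitive samples (two-sided exact permutation p = 0.1, which no comparison of 3 with 3 samples can go below), and the GAPDH ratio was 0.98 to 1.04 in resistant and 1 to 1.01 in sensitive samples (p = 0.4 by the same exact permutation test). Of 11 colon epithelial markers 9 passed the filter, and 1 of these was higher and 6 were lower in resistant cells. By the same test, described below, 12.4% of all tested genes were higher and 22.5% lower. The summed scaled signal of the 11 markers was 1598.1 to 1797.3 in resistant and 2060.7 to 2272.5 in sensitive samples, with CDX1 and CDX2 under the filter. The sum of 10 markers of blood, endothelial, stromal and liver cells was 6.02 to 9.08 in resistant and 7.75 to 11.2 in sensitive samples. Of the 3 tested, CD14 was lower at -2.81 (limma adjusted p = 0.0013) and none was higher, while LUM, under the filter, averaged 0.127 in resistant and 1.63 in sensitive samples without overlap. The part of RNA integrity and of these markers in the results below was not tested.

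Among the 30 tested transporter genes, 4 were higher in resistant cells, 10 were lower and 16 did not pass the test (limma, Benjamini-Hochberg adjusted p under 0.05 over all 11835 genes tested). That is 13.3% higher and 33.3% lower, against a background over all tested genes of 12.4% higher and 22.5% lower. Called members made up 46.7%, against 34.9% of all genes. The median log2 fold change of the members was -0.08, close to the -0.1 of all tested genes. Resistant and sensitive arrays did not overlap in 15 of the 30 members, or 50%, against 46.2% of all genes. The higher genes were SLC7A7, SLC6A20, SLC1A4 and SLC7A11. The lower genes were SLC38A5, SLC7A6, SLC1A1, SLC6A8, SLC43A2, SLC38A11, SLC7A5, SLC3A2, SLC38A9 and SLC38A1. A change of at least 2-fold was reached by 1 higher and 6 lower members, in a background of 4.55% of all genes higher and 5.2% lower by that rule. After quantile normalization 7 members were higher and 10 were lower, since SLC1A5, SLC38A2 and SLC38A6 also passed, with 21.1% of all genes higher and 18.8% lower.

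**Figure D1:**
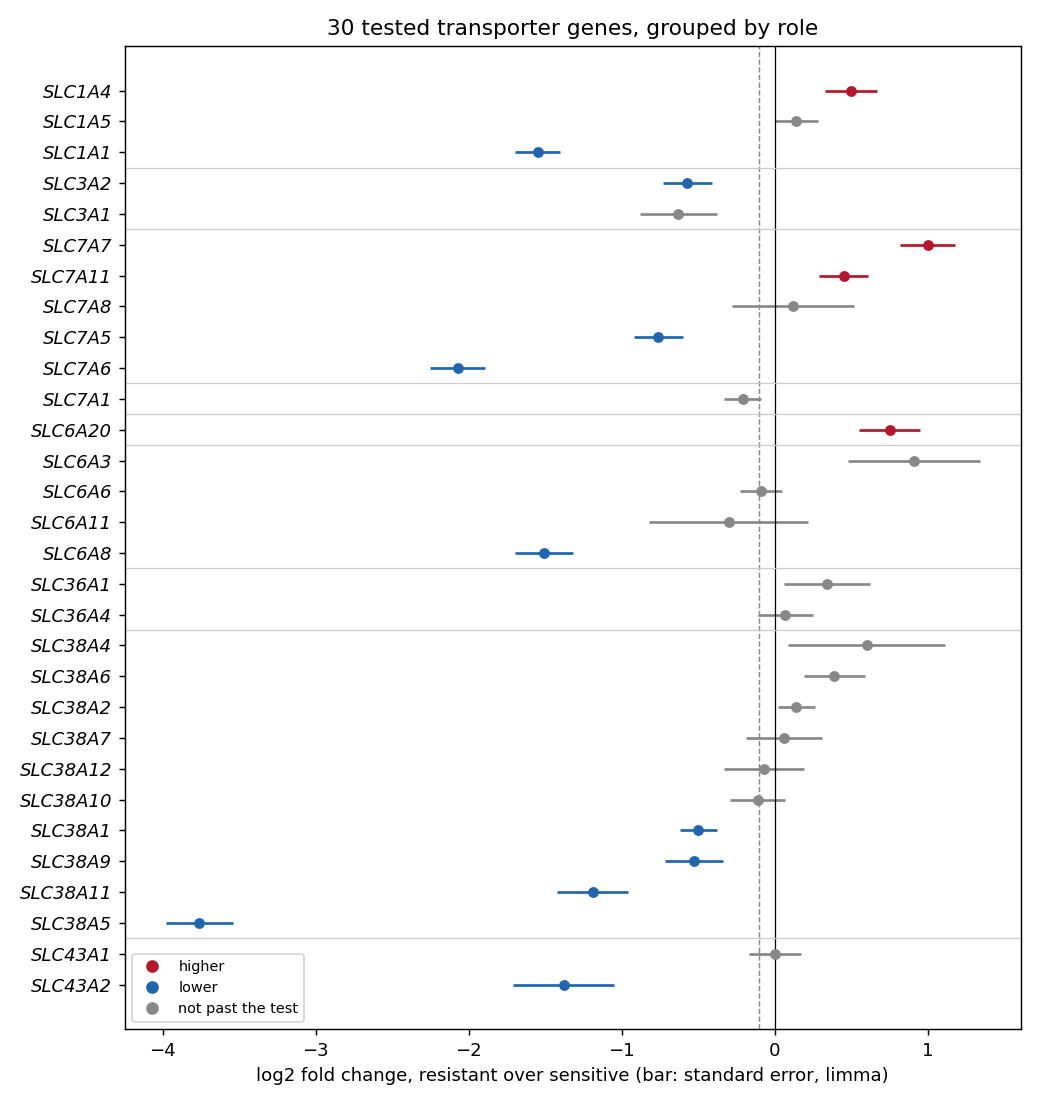
Log2 difference of resistant from sensitive cells (n = 3 arrays each) for the 30 tested transporter genes on the horizontal axis, ordered by role from SLC1 (top) to SLC43 (bottom), with bars for the standard error in limma and a dashed line at the median of all tested genes, -0.1. Red genes were higher and blue genes lower at an adjusted p under 0.05, and SLC38A5 stands farthest from 0 at -3.76.

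Several of these genes carry the element through which the transcription factor ATF4 and its partners answer amino acid shortage, TGATGNAA, and their promoters are shown because the genes that share it did not change alike. Windows of 300 bases, from 250 before to 50 after each start site, were taken from RefSeq on GRCh38.p14, which held 26 of the 30 tested genes. SLC3A1, SLC6A3, SLC6A6 and SLC7A11 had no window there and were not searched for any motif. The element, searched on both strands, was in the windows of 5 of the 26 genes (19.2%), against 4.46% of 27305 genes and 3.62% of all 35116 windows. The 27305 genes include genes not tested on the arrays, so that background is unlike the members and no excess is read from it. Of these 5 genes 1 was higher (SLC1A4), 2 were lower (SLC3A2 and SLC38A1) and 2 did not pass the test (SLC1A5 and SLC7A1). The windows below are chr2:64989149-64989448 on the plus strand for SLC1A4, chr19:46784765-46785064 on the minus strand for SLC1A5, chr11:62881449-62881748 on the plus strand for SLC3A2, chr13:29595639-29595938 on the minus strand for SLC7A1 and chr12:46266467-46266766 on the minus strand for SLC38A1. Capitals mark the element, which in SLC1A4 and SLC3A2 reads on the opposite strand. It begins 97 bases before the start site in SLC1A5, 7 before it in SLC1A4 and 4 before it in SLC38A1, and at base 8 after it in SLC7A1 and base 38 in SLC3A2. SLC1A4, SLC1A5, SLC3A2 and SLC38A1 have 2 or 3 windows for different start sites, and the arrays do not tell which start site was used.
SLC1A4: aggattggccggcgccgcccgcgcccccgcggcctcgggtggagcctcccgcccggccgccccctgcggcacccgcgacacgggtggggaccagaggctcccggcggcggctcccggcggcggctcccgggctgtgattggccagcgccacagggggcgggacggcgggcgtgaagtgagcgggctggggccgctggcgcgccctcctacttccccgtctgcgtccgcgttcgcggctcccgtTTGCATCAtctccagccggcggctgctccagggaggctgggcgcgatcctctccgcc
SLC1A5: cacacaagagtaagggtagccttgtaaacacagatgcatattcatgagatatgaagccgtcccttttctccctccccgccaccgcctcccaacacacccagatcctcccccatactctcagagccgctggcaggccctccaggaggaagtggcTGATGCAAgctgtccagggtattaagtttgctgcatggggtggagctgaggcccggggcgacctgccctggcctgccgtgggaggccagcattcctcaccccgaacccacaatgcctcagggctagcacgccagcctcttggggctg
SLC3A2: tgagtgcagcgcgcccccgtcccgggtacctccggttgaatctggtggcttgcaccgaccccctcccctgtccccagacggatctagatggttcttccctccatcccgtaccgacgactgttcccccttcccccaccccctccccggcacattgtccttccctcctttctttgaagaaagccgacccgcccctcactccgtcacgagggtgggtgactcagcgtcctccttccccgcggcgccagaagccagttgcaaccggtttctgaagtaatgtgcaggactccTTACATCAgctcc
SLC7A1: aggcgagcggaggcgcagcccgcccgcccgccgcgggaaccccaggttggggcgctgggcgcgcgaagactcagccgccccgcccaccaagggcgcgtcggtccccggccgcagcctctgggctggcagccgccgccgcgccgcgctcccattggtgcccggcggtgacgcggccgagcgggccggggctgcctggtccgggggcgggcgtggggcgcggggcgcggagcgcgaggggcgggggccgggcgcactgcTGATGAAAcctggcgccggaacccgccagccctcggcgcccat
SLC38A1: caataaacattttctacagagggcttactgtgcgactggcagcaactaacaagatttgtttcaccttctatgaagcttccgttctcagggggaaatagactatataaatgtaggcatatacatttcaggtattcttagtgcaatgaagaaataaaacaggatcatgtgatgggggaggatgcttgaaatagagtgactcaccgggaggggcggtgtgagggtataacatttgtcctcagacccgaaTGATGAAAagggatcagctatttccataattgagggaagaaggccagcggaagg

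The E-box CACGTG, which MYC and related factors bind, was in the windows of 8 of the 26 genes (30.8%), against 8.77% of all genes. Of these 8 genes 1 was higher, 2 were lower and 5 did not pass. Both that were lower are shown with the E-box in capitals, SLC7A5 at chr16:87869458-87869757 and SLC38A5 at chrX:48470211-48470510, each on the minus strand. The core of the antioxidant response element, TGACNNNGC, was in 6 of the 26 (23.1%), against 16.1% of all genes, with 1 higher, 3 lower and 2 not past the test. SLC7A11, called higher, is not among the 26 and was not searched. Here too the share of all genes takes in genes not tested on the arrays, and no excess is read from it. None of these matches shows that a factor was bound.
SLC7A5: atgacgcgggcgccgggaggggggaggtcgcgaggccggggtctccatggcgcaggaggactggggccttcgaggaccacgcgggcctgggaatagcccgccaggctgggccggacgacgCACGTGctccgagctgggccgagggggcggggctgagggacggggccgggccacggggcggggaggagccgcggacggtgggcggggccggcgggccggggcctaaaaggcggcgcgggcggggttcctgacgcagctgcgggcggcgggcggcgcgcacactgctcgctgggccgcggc
SLC38A5: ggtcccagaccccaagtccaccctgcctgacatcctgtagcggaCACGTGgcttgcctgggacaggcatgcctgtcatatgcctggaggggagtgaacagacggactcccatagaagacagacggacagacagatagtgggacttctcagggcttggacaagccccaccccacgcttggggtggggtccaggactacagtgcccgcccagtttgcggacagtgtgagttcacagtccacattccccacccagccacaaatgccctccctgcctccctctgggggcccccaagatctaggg

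Of the 5 tested light chains of the heteromeric exchangers 2 were higher, 2 were lower and 1 did not pass, and of their 2 heavy chains 1 was lower, against the background of 12.4% higher and 22.5% lower. SLC7A6 and SLC7A7 are light chains of the same system, which sends out arginine or lysine in exchange for a neutral amino acid and sodium. SLC7A6 had scaled signals of 5.2, 5.69 and 7.88 in resistant samples, against 26.7, 24.7 and 26.1 in sensitive samples. Every resistant sample lay under every sensitive one, and the log2 fold change was -2.07 (limma SE 0.18 and adjusted p = 1.8e-12). The 5 tested genes on each side of SLC7A6 on chromosome 16 had a median log2 fold change of -0.14. They lay between -0.53 and 1.21, with 1 of the 10 higher and 1 lower. The paper reports the E-cadherin gene, on the same chromosome, as lost in resistant cells. Whether the fall of SLC7A6 belongs to such a loss was not tested. SLC7A7 had scaled signals of 47.2, 28.3 and 25.6 in resistant samples, against 19, 14.3 and 15.7 in sensitive samples, with resistant replicate 1 the highest of all. Its groups did not overlap either, and it rose by 1.00 on the log2 scale (limma SE 0.18 and adjusted p = 3.6e-05). Within each array, which takes out any scaling, the log2 ratio of the SLC7A7 to the SLC7A6 signal was 3.18, 2.31 and 1.7 in resistant samples, against -0.49, -0.79 and -0.74 in sensitive samples. The 2 light chains thus differed in their change by 3.07 on the log2 scale (two-sided exact permutation p = 0.1, adjusted 0.13 over 4 pairs of members, where no smaller p was possible).

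Both subunits of the leucine exchanger were lower in resistant cells. The light chain SLC7A5 (LAT1) had scaled signals of 41.8, 27 and 40.9 in resistant samples, against 64.1, 64.3 and 54.6 in sensitive samples. The heavy chain SLC3A2 (CD98) had 24.5, 22 and 26.3 in resistant samples, against 42.4, 36.5 and 30 in sensitive samples. Neither gene showed overlap between the groups, although the sensitive samples of SLC3A2 were spread more widely than the resistant ones. SLC7A5 fell by 0.76 on the log2 scale (limma SE 0.16 and adjusted p = 0.00019) and SLC3A2 by 0.57 (limma SE 0.16 and adjusted p = 0.0047). Their log2 ratio within each array differed between the groups by -0.19, with overlap (exact permutation p = 0.3, adjusted 0.3), so that no unequal change of the pair was seen at this number of arrays. Without sensitive replicate 1 SLC3A2 was at -0.45 and did not pass (limma adjusted p = 0.073). SLC7A5 has near-identical pseudogenes such as SLC7A5P1, which its probe set may also detect.

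SLC7A11 (xCT), which also pairs with SLC3A2 and brings in cystine in exchange for glutamate, was higher in resistant cells by a small margin. Its scaled signals were 49.5, 43.7 and 67.6 in resistant samples, against 34, 39.5 and 42.9 in sensitive samples. The groups did not overlap, but resistant replicate 2 and sensitive replicate 3 nearly met. The log2 fold change of 0.45 (limma SE 0.16 and adjusted p = 0.023) no longer passed without resistant replicate 3 (0.27, adjusted p = 0.26), sensitive replicate 1 (0.36, adjusted p = 0.13) or sensitive replicate 2 (0.46, adjusted p = 0.055), and 8 of 19 alternatives ended the call, with 0.17 when its probe sets were averaged (adjusted p = 0.53). Its other tested probe sets were at 0.27 and -0.2. SLC7A8, another light chain for neutral amino acids, was near the array median in both groups, with means of 1.73 in resistant and 1.51 in sensitive samples, and did not pass (adjusted p = 0.85).

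SLC3A1, the heavy chain of the intestinal and renal cystine transporter, had scaled signals of 2.48, 3.21 and 2.02 in resistant samples, against 4.14, 3.07 and 4.66 in sensitive samples. The groups overlapped and the gene just missed the threshold, at -0.63 (limma SE 0.25 and adjusted p = 0.051). It passed without resistant replicate 2 (-0.8, adjusted p = 0.038) or sensitive replicate 2 (-0.8, adjusted p = 0.03), and with the replicate number as a block (adjusted p = 0.043). Its light chain SLC7A9 was under the filter, with a mean of 0.871 over the 6 arrays. SLC7A1, the main carrier of arginine and lysine in most cells, had means of 112.4 in resistant and 130 in sensitive samples. Its groups did not overlap, but its log2 fold change of -0.21 did not pass (adjusted p = 0.16). It passed without resistant replicate 1 (-0.28, adjusted p = 0.047) and with the replicate number as a block (adjusted p = 0.048).

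**Figure D2:**
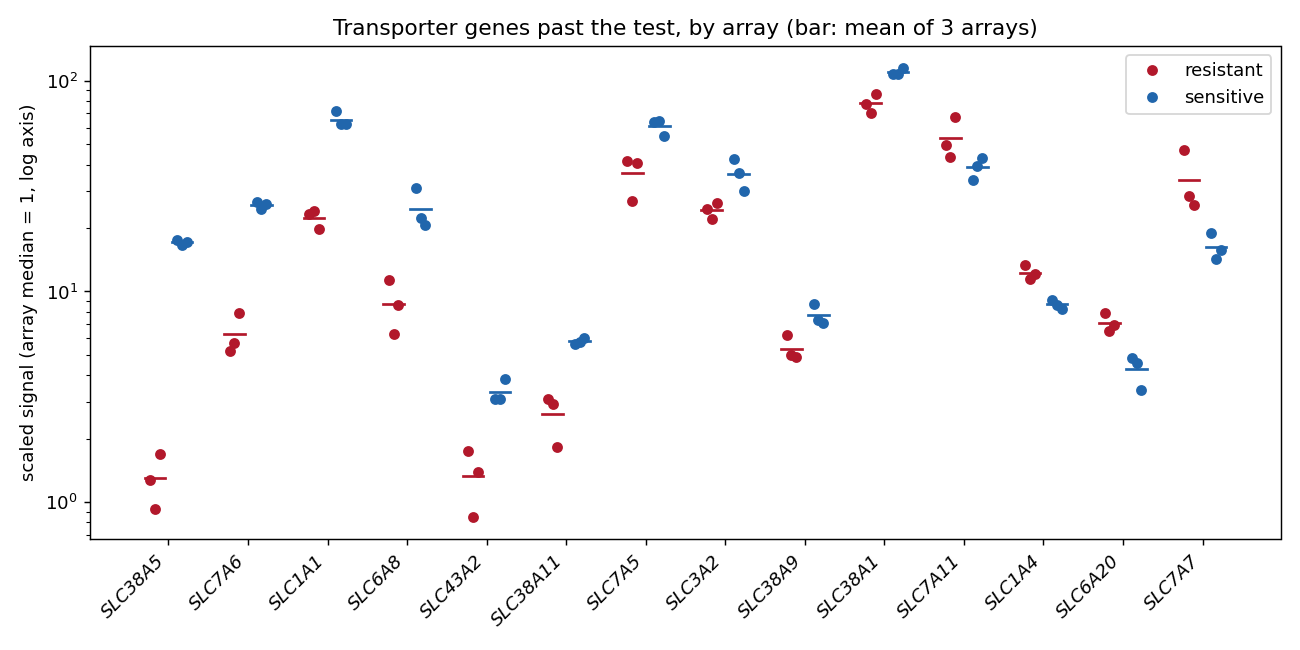
Scaled signal (array median = 1, log axis) of the 14 transporter genes past the test on each array, with red points for the 3 resistant and blue points for the 3 sensitive samples, horizontal bars for their means and genes ordered by log2 fold change from SLC38A5 at -3.76 to SLC7A7 at 1.00. No gene shows overlap between the groups, and the gap is widest for SLC38A5.

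Sodium-coupled SLC38 transporters held the deepest fall of all members. SLC38A5, a system N carrier of glutamine, asparagine, histidine, serine and glycine, had scaled signals of 1.28, 0.925 and 1.7 in resistant samples, against 17.6, 16.6 and 17.1 in sensitive samples. The resistant signals lay near the array median while the sensitive ones agreed closely with each other. The log2 fold change was -3.76 (limma SE 0.22 and adjusted p = 1.7e-17), and it lay between -3.98 and -2.99 under 19 alternatives. No detection calls were used here, so that a signal near the array median sets no firm level, and no exact fold is given. SLC38A5 has 1 probe set on the array and no other to compare with. The 5 tested genes on each side of it on the X chromosome had a median log2 fold change of 0.03, with 1 of the 10 lower and none higher.

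Other SLC38 genes changed less. SLC38A11, a member with no well-described substrate, had scaled signals of 3.08, 2.92 and 1.82 in resistant samples, against 5.64, 5.75 and 6 in sensitive samples, a log2 fold change of -1.19 (limma SE 0.23 and adjusted p = 7.9e-05). SLC38A1, a system A carrier that accumulates glutamine and alanine, had 77.6, 70.2 and 86.6 in resistant samples, against 107.7, 107.9 and 114.6 in sensitive samples, and fell by 0.50 (limma SE 0.12 and adjusted p = 0.0017). The groups of both genes stood apart, but SLC38A1 did not pass with its 4 probe sets averaged (-0.43, adjusted p = 0.14). That average took in a probe set under the filter, while the others that were tested were at -0.39 and -0.38. SLC38A2, the system A carrier known to be induced when amino acids run short, had 132.5, 109.7 and 110.8 in resistant samples, against 115.2, 100.4 and 103.2 in sensitive samples. These overlapped, and its 0.14 did not pass (adjusted p = 0.38), although it did at 0.31 after quantile normalization (adjusted p = 0.0021). The log2 ratio of SLC38A5 to SLC38A2 within arrays differed between the groups by -3.9, with no overlap (exact permutation p = 0.1). Since SLC38A2 did not pass the test, this ratio mostly restates the fall of SLC38A5.

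SLC38A9, the lysosomal arginine sensor that signals to mTORC1, had scaled signals of 6.21, 4.99 and 4.86 in resistant samples, against 8.72, 7.33 and 7.08 in sensitive samples. It was at -0.53 (limma SE 0.19 and adjusted p = 0.026). Of 19 alternatives 8 ended that call, among them leaving out resistant replicate 2 (-0.48, adjusted p = 0.081), resistant replicate 3 (-0.46, adjusted p = 0.071), sensitive replicate 1 (-0.44, adjusted p = 0.15) or sensitive replicate 2 (-0.56, adjusted p = 0.06), and averaging its probe sets (-0.32, adjusted p = 0.44). Its second probe set, taken into that average, was under the filter. The remaining tested SLC38 genes, SLC38A4, SLC38A6, SLC38A7, SLC38A10 and SLC38A12, lay between -0.11 and 0.60 and did not pass. SLC38A12 has also been named TMEM104. Of the 10 tested SLC38 genes, 4 passed as lower, SLC38A9 among them, and none as higher, against 22.5% of all tested genes lower and 12.4% higher, and nothing particular to the family is read from this count.

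Of the 3 tested SLC1 genes the glutamate carrier SLC1A1 was lower, the neutral exchanger SLC1A4 was higher and the neutral exchanger SLC1A5 did not pass. SLC1A1 (EAAT3), which takes up glutamate, aspartate and cysteine, had scaled signals of 23.4, 24 and 19.9 in resistant samples, against 71.8, 62.4 and 62.3 in sensitive samples. All resistant values lay well under the sensitive ones, at a log2 fold change of -1.55 (limma SE 0.15 and adjusted p = 6.3e-11), and the other tested probe set was at -1.3. SLC1A4 (ASCT1), an exchanger of alanine, serine and cysteine, had 13.3, 11.5 and 12.1 in resistant samples, against 9.15, 8.65 and 8.27 in sensitive samples. It rose by 0.50 (limma SE 0.17 and adjusted p = 0.02), with its 3 other tested probe sets between 0.4 and 0.63. Without sensitive replicate 2 (0.50, adjusted p = 0.08) or sensitive replicate 3 (0.47, adjusted p = 0.092) it did not pass, nor with its probe sets averaged (0.46, adjusted p = 0.11). That average took in a probe set under the filter. SLC1A5 (ASCT2), the glutamine exchanger, had 75.7, 59.2 and 66.4 in resistant samples, against 60.9, 58.3 and 62.7 in sensitive samples. Its groups overlapped, and its 0.14 did not pass (adjusted p = 0.46), although it did at 0.33 after quantile normalization (adjusted p = 0.0038). The log2 ratio of SLC1A1 to SLC1A5 within arrays differed between the groups by -1.69, with no overlap (exact permutation p = 0.1). Since SLC1A5 did not pass the test, this ratio mostly restates the fall of SLC1A1. Over the 4 pairs of members compared in this way the adjusted p was 0.13 for each of the 3 that did not overlap. On chromosome 9, 4 of the 10 tested genes nearest to SLC1A1 were lower (median -0.4), and on chromosome 2, 5 of the 10 nearest to SLC1A4 were higher and 1 was lower (median 0.38). The part of these regions in both changes was not tested.

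In the SLC6 family most members were dim. Of its 18 members 5 passed the filter. SLC6A8, the creatine transporter, had scaled signals of 11.3, 6.3 and 8.63 in resistant samples, against 30.9, 22.3 and 20.6 in sensitive samples, with no overlap. Its log2 fold change was -1.51 (limma SE 0.19 and adjusted p = 3.3e-08), and its 2 other tested probe sets were at -1.01 and -1.04. SLC6A8 lies on distal Xq, and of the 5 tested genes on each side of it 9 of 10 were lower, with a median log2 fold change of -1.58 and a range of -7.08 to 0.17. Whether the change of SLC6A8 belongs to that region was not tested. It also has a near-identical copy, SLC6A10P on chromosome 16, whose transcripts its probe sets may detect, and 3 further probe sets that name both genes were not used.

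SLC6A20, the proline and imino acid carrier of intestinal and renal brush borders, had scaled signals of 7.92, 6.46 and 6.92 in resistant samples, against 4.82, 4.59 and 3.4 in sensitive samples. It rose by 0.75 (limma SE 0.2 and adjusted p = 0.003), and its other tested probe set was at 0.73. SLC6A6, the taurine carrier, had means of 45.1 ± 3.48 in resistant and 48.1 ± 4.91 in sensitive samples (SD, n = 3 each) and did not pass (-0.09, adjusted p = 0.67). SLC6A3, the dopamine transporter, had scaled signals of 2.65, 2.33 and 1.2 in resistant samples, against 0.923, 1.37 and 0.883 in sensitive samples. These signals are near the array median and overlap, and SLC6A3 passed only without resistant replicate 3 (1.26, adjusted p = 0.023, against 0.91 and adjusted p = 0.093 with all arrays). SLC6A11, a GABA transporter, was at -0.3 (adjusted p = 0.69).

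Facilitative and proton-coupled carriers held 1 more change. SLC43A2 (LAT4), which lets large neutral amino acids move down their gradient, had scaled signals of 1.74, 0.85 and 1.39 in resistant samples, against 3.09, 3.09 and 3.82 in sensitive samples. It was at -1.38 (limma SE 0.33 and adjusted p = 0.00092), without overlap but near the array median. With the mean of both its probe sets, of which the second was under the filter, it was at -0.27 (adjusted p = 0.72). Its relative SLC43A1 (LAT3) had means of 11.1 ± 1.81 in resistant and 11.1 ± 0.649 in sensitive samples (SD, n = 3 each). SLC36A1, which exports small neutral amino acids from lysosomes, and SLC36A4 were at 0.34 and 0.07 and did not pass.

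**Figure D3:**
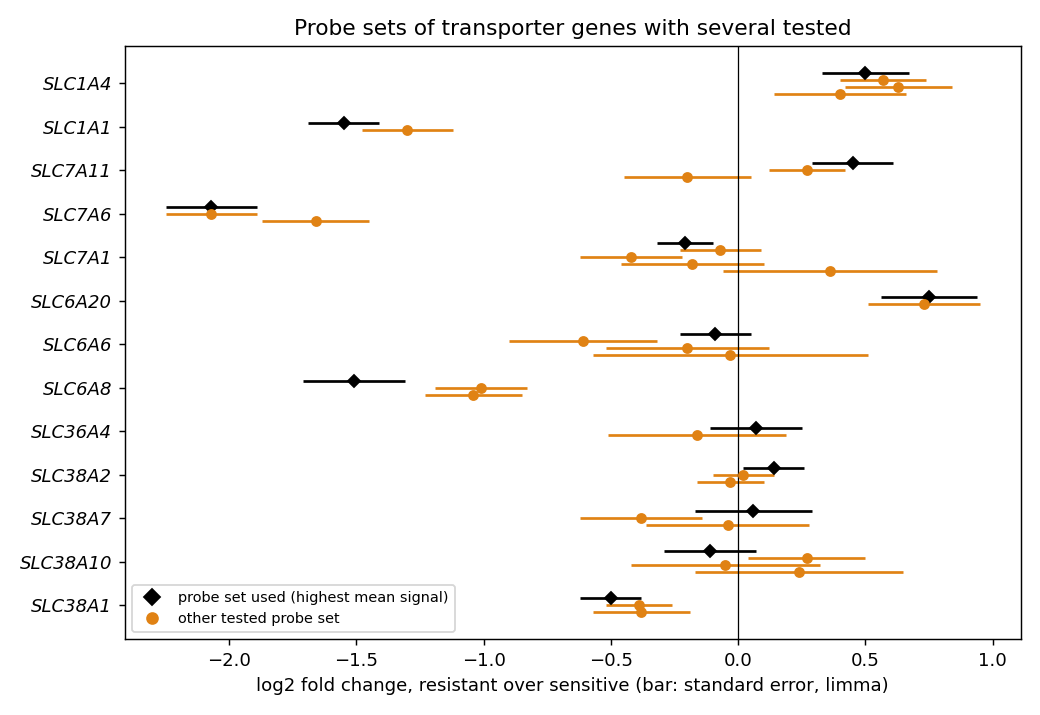
Log2 difference of resistant from sensitive cells (n = 3 arrays each) for each tested probe set of the 13 transporter genes with several, with bars for the standard error in limma, black diamonds for the probe set used and orange circles for the others. The probe sets of SLC1A4, SLC1A1, SLC7A6, SLC6A20, SLC6A8 and SLC38A1 lie on the same side of 0, and those of SLC7A11 do not.

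Of the 55 members 25 were under the filter, a mean scaled signal of 1, and were not tested in the main fit. They were SLC1A2, SLC1A3, SLC1A6 and SLC1A7 among glutamate and neutral carriers, SLC7A9, SLC7A10 and SLC7A13 among light chains, and SLC7A3, SLC7A4 and SLC7A14 among cationic carriers. In the SLC6 family they were SLC6A2, SLC6A4, SLC6A5, SLC6A7, SLC6A9, SLC6A12 to SLC6A19 without exception, and in the other families SLC38A3 and SLC43A3. The highest of their means over the 6 arrays was 0.871, for SLC7A9, and the highest signal on a single array was 1.99. From signals this low no difference is read here, which does not show that these genes were silent. With no filter, 3 of the 55 members were higher and 9 lower, against 6.11% and 11.4% of all genes. SLC36A2, SLC36A3 and SLC38A8 had no probe set of their own and are not among the 55.

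Genes around amino acid transport, outside the families, were read from 7 lists. Of 93 listed genes 75 were tested, and 10 were higher (13.3%) and 13 lower (17.3%), against the same background of 12.4% and 22.5%. Of 6 other plasma membrane and lysosomal carriers and 8 mitochondrial amino acid carriers, such as the aspartate-glutamate carriers SLC25A12 and SLC25A13, none was past the test in either direction. Of 7 partners and regulators of transporter trafficking, 4 were lower and 1 was higher. PDZK1, a scaffold that holds transporters at the apical membrane, averaged 2.48 ± 0.675 in resistant and 11.8 ± 1.55 in sensitive samples (SD, n = 3 each), with a log2 fold change of -2.27 (limma adjusted p = 1.3e-11). SGK1, a kinase that raises the surface level of several carriers, was at -1.27. NEDD4L and NEDD4, ubiquitin ligases known to remove membrane transporters, were at -0.93 and -0.8, and NEDD4L was at the threshold with its probe sets averaged (-0.65, adjusted p = 0.05). CD44, which stabilizes the SLC7A11 protein, was at 0.36, and without resistant replicate 3 (0.31, adjusted p = 0.084) or sensitive replicate 3 (0.33, adjusted p = 0.067), or with its probe sets averaged (0.25, adjusted p = 0.31), it did not pass.

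Of 22 genes of mTORC1 and its amino acid sensing, 2 were higher, 1 was lower and 19 did not pass. Over all tested genes 12.4% were higher and 22.5% lower. SESN1, a relative of the leucine sensor SESN2, averaged 3.04 ± 0.221 in resistant and 10.1 ± 0.289 in sensitive samples (SD, n = 3 each), with a log2 fold change of -1.74 (limma adjusted p = 1.5e-09). CASTOR2, a paralog of the arginine sensor CASTOR1, averaged 7.28 ± 1.7 in resistant and 2.65 ± 1.48 in sensitive samples (SD, n = 3 each) and was at 1.66 (limma adjusted p = 2.6e-05). A related pseudogene, CASTOR3P, may share its probe set. SESN3 was at 1.27 from dim signals and did not pass without resistant replicate 1 (0.99, adjusted p = 0.11) or resistant replicate 2 (1.16, adjusted p = 0.084), or with its probe sets averaged (0.78, adjusted p = 0.26).

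Of 15 genes of the amino acid response list 3 were higher and 5 lower, against 12.4% and 22.5% of all tested genes. ATF4, the transcription factor that binds the element shown in capitals above, averaged 192.2 ± 9.34 in resistant and 151.2 ± 13.4 in sensitive samples (SD, n = 3 each), with a log2 fold change of 0.35 (limma adjusted p = 0.0097). It did not pass without sensitive replicate 2 (0.29, adjusted p = 0.081) or sensitive replicate 3 (0.33, adjusted p = 0.053). TRIB3, a target of ATF4, was at 0.52, and the kinase EIF2AK3 was at 0.74, or at -0.4 (adjusted p = 0.56) with its probe sets averaged. ATF3, a stress-induced factor, averaged 2.54 ± 0.542 in resistant and 9.67 ± 0.53 in sensitive samples (SD, n = 3 each), with a log2 fold change of -1.95 (limma adjusted p = 6.1e-10). The other lower genes were DDIT3 at -0.61, EIF2S1 at -0.55, KEAP1 at -0.54 and EIF2AK2 at -0.48. Leaving out 1 array ended the calls of DDIT3 (-0.52 without resistant replicate 3, -0.62 without sensitive replicate 1 and -0.57 without sensitive replicate 2), of KEAP1 (-0.42 without resistant replicate 2 and -0.49 without sensitive replicate 1) and of EIF2AK2 (-0.44 without sensitive replicate 1 and -0.42 without sensitive replicate 3). MYC was at -0.05 (adjusted p = 0.75) and NFE2L2, the activator of antioxidant genes that KEAP1 holds back, at -0.29 (adjusted p = 0.078).

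Of 6 genes of glutathione synthesis and turnover 2 were higher, against 12.4% of all tested genes. They were the reductase GSR at 0.68 and GCLC, the catalytic subunit of the limiting enzyme, at 0.52, which overlapped between groups and was at 0.35 (adjusted p = 0.086) without resistant replicate 1. Neither passed with probe sets averaged, GSR at 0.39 (adjusted p = 0.096) and GCLC at 0.36 (adjusted p = 0.2). Of 11 genes of glutamine and glutamate use 2 were higher and 3 were lower, against 12.4% and 22.5% of all tested genes. CTPS1, which uses glutamine to make CTP, averaged 32.6 ± 2.75 in resistant and 67.6 ± 5.76 in sensitive samples (SD, n = 3 each), with a log2 fold change of -1.05 (limma adjusted p = 2.1e-07). The mitochondrial aspartate aminotransferase GOT2 was at -0.89 and PPAT, which uses glutamine in purine synthesis, at -0.76, although PPAT was at -0.29 (adjusted p = 0.32) with its probe sets averaged. Asparagine synthetase, ASNS, averaged 87.5 ± 5.52 in resistant and 55.8 ± 4.02 in sensitive samples (SD, n = 3 each), at 0.65 (limma adjusted p = 0.00016), or 0.39 (adjusted p = 0.31) with its probe sets averaged. GOT1, the cytosolic aspartate aminotransferase, was at 0.53, or 0.47 without sensitive replicate 3 (adjusted p = 0.054).

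**Figure D4:**
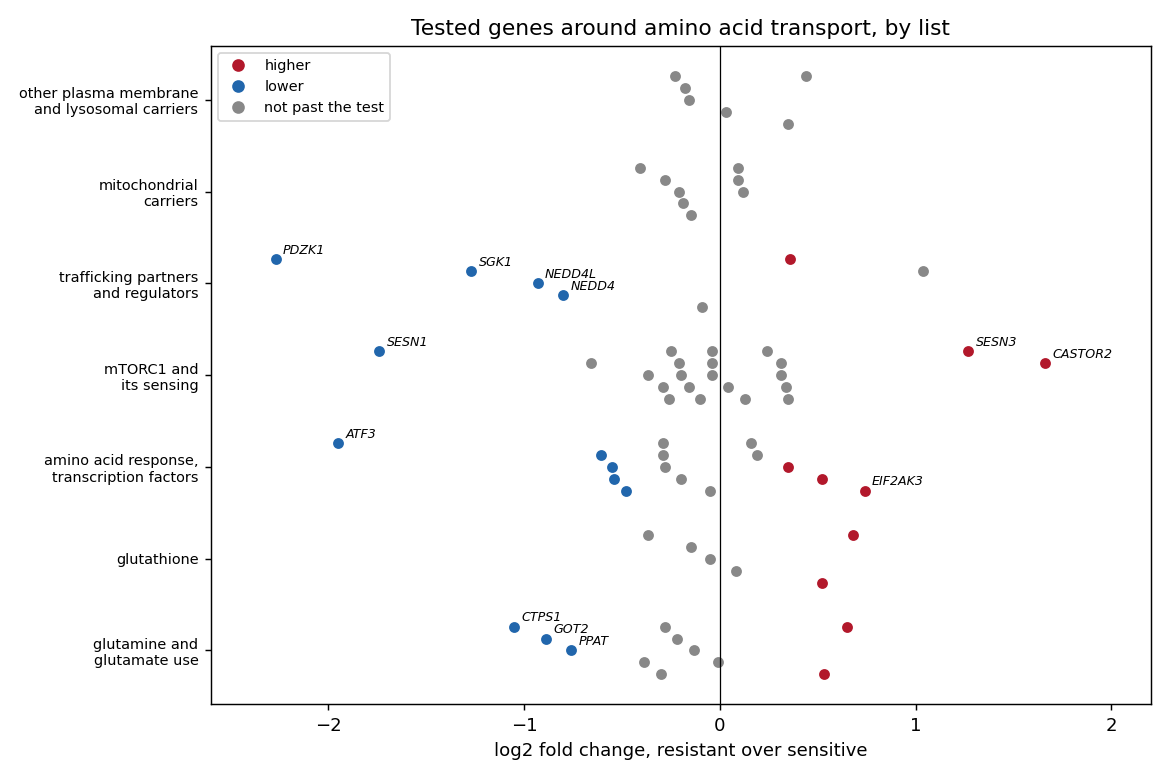
Log2 difference of resistant from sensitive cells (n = 3 arrays each) for the 75 tested genes around amino acid transport on the horizontal axis, by list from other carriers (top) to glutamine and glutamate use (bottom), with red points higher, blue points lower and grey points not past the test. PDZK1 at -2.27 and CASTOR2 at 1.66 lie farthest out, and no mitochondrial carrier passed.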

How the data were processed

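The deposited intensity of each probe set is the MAS5 signal of the authors, of a version not given in the sources used here. Their GeneSpring steps (scaling per chip and to the control cells, filtering by control strength, testing with a 3-fold threshold) came later and are not in these values.

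Of 54675 probe sets, 62 controls were left out. By GEO's platform annotation, 41091 named 1 gene, 1801 named several and 11721 none. Symbols were updated through Entrez identifiers (41037 matched) from RefSeq for GRCh38.p14, which also gave gene order. Scaled signals had a floor of 0.01. On the log2 scale, genes whose scaled signal averaged 1 or more (11835) were tested in limma 3.58.1 (R 4.3.3) with a variance trend, with the Benjamini-Hochberg adjustment over all of them. The number of arrays limits the precision.

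Members, lists and motifs were chosen with earlier results of these data known. All members are accounted for, and those past the test are given per array. Of each pathway list up to 4 genes past the test were named by rule, while CD44, ATF4, TRIB3, KEAP1, EIF2AK2, GOT1, MYC, NFE2L2, SLC25A12 and SLC25A13 were added after their values were seen. On simulated data with 200 of 11835 genes changed, 86% of 8-fold falls, 94% of 8-fold rises, 52% of 2-fold falls and 72% of 2-fold rises were recovered. The simulated noise was normal and independent, and in the real data 34.9% of genes were called. These recovered shares therefore need not hold for the real comparison. Alternatives covered scaling, floor, filter, probe set, test, fold threshold, a replicate block and each array left out. Where probe sets were averaged, those under the filter were taken in.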

Additional observations from a re-analysis of the deposited data

How the results depend on the processing

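All 14 called transporter genes kept their direction under every alternative run. The count of higher members, 4, was 7 after quantile normalization and 7 with arrays scaled on brighter probe sets only (those past the filter), 2 when a gene's probe sets were averaged (with 7 lower), and 2 to 4 with 1 array left out. Over all tested genes the share called higher, 12.4%, moved as well, to 21.1%, 19.4% and 8.03% under these 3 settings (lower 22.5%, and 18.8%, 21.4% and 15.6%), and to 4.85% higher and 9.49% lower in the equal-variance and 0.642% and 1.13% in the unequal-variance test below. The count of lower members, 10, was 8 to 11 with 1 array left out. The methods' test, on the same log2 values, called 1 member higher and 4 lower with equal variances, and 0 higher and 1 lower, SLC1A1, with unequal variances after Benjamini-Hochberg adjustment (2 higher and 9 lower at an unadjusted p under 0.05), against 4 and 10 in limma. With the methods' threshold of 3-fold as well, limma called 0 higher and 2 lower, and the methods' test 0 and 2 (equal variances) or 0 and 0 (unequal). Of the pathway genes, 10 higher and 13 lower, 4 were higher when probe sets were averaged, 6 without the trend, 2 with the equal-variance and 0 with the unequal-variance test, and 1 at 3-fold, while 2 were lower with the unequal-variance test and 3 at 3-fold. With 1 array left out they were 7 to 10 higher and 10 to 25 lower, with 25 without resistant replicate 1. Over all tested genes the shares were then 9.56% to 12.9% higher and 16.1% to 30.2% lower, with 30.2% without resistant replicate 1. Without the trend 9.48% of all genes were higher, and at 3-fold in limma 1.94% were higher and 2.19% lower.

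With the replicate number as a block, 23 pathway genes were lower, and 4 members were higher and 12 lower, SLC3A1 and SLC7A1 being added. Over all tested genes the shares also rose in that setting, to 15.0% higher and 27.6% lower. Same-numbered samples correlated in their deviations at only 0.08, 0.02 and 0.05, although each sample correlated best with its own number, so that the numbers were not taken to pair the samples.

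Among members not past the test the sign changed for SLC38A10 (0.03) and SLC6A6 (0.09) after quantile normalization, for SLC38A12 (0.03) and SLC6A6 (0.01) with arrays scaled on brighter probe sets, and for SLC36A1 (-0.42) and SLC36A4 (-0.05) when probe sets were averaged, as for the called gene EIF2AK3 (-0.4). With 1 array left out, SLC36A4 lay between -0.05 and 0.22 (also -0.02), SLC6A11 between -0.6 and 0.2, SLC7A8 between -0.25 and 0.4 (also -0.07), SLC38A7 between -0.02 and 0.19 and SLC38A12 between -0.16 and 0.08. The causes were not tested. No detection calls were used, so that signals near the array median, as in SLC38A5 and SLC43A2, set no firm level.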
